A study of Mus musculus with 24 samples.

Results

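The genes for the 5 NF-κB subunits (Rela, Relb, Rel, Nfkb1 and Nfkb2) and for 5 of their inhibitors (Nfkbia, Nfkbib, Nfkbie, Nfkbiz and Tnfaip3) were followed through RNA-seq of MIN6 cells, a mouse insulinoma line used as a model of the β cell. They were taken by gene symbol from the deposited gene table, and all 10 were found among its 17696 genes. The 3 stable lines had been made with lentiviral vectors and puromycin selection. The paper's methods say that single clones were picked and screened for miR-146a-5p. Scr carried a scrambled sequence, ZIP an anti-sense inhibitor of miR-146a-5p, and OE an overexpression construct for miR-146a-5p. Each line was sequenced untreated and after 24 h of exposure to a cytokine mix made of IL-1β at 5 ng/mL, TNFα at 10 ng/mL and IFNγ at 100 ng/mL (Scr+Cy, ZIP+Cy and OE+Cy), with 4 libraries in each of the 6 groups. Scr and ZIP shared a vector backbone and a GFP reporter whereas OE had another backbone with an RFP reporter, so for each modified line the construct, the clone and, for OE, the backbone cannot be told apart. The level of miR-146a-5p itself was not analysed here.

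NF-κB acts as pairs of subunits. Rela, Relb and Rel (c-Rel) carry the transactivation domains, whereas Nfkb1 and Nfkb2 encode the precursors p105 and p100 that are processed to p50 and p52. In resting cells the pairs are held in the cytoplasm by the IκB proteins encoded by Nfkbia (IκBα), Nfkbib (IκBβ) and Nfkbie (IκBε), and receptors for IL-1 and TNF activate IκB kinase, which marks the IκBs for degradation (the canonical route). In the non-canonical route other receptors of the TNF family act through the kinase NIK to drive the processing of p100. Nfkbiz encodes IκBζ, a nuclear IκB-like protein that works with p50 and can act as a co-activator, and Tnfaip3 encodes A20, a ubiquitin-editing enzyme that shuts the pathway off upstream of IκB kinase. Several of these genes are themselves NF-κB targets, which gives the pathway its feedback, and in β cells the pathway is known as the main route of IL-1β signalling.

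miR-146a-5p, the small RNA that was inhibited or overexpressed, is printed here with its seed (bases 2 to 8) in capitals, beside its relative miR-146b-5p, which has the same seed. Both are RefSeq entries on GRCm38.p6, at chr11:43374435-43374456 on the minus strand and chr19:46342790-46342811 on the plus strand.
mmu-miR-146a-5p: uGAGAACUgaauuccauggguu
mmu-miR-146b-5p: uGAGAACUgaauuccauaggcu

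The complement of this seed, AGTTCTC, was searched for in the 3′ untranslated regions of the coding transcripts of GENCODE M21 (GRCm38). Of the 10 members only Rel held it, at 4 places in its single annotated transcript, and 11.9% of 21028 genes held at least 1. The sites are printed with the matching letters in capitals and 11 bases on each side, and the coordinates are those of the capitals on the minus strand of Rel.
Rel chr11:23737003-23737009: atttttttttaAGTTCTCaagatactggt
Rel chr11:23739119-23739125: ttttgctaattAGTTCTCcatttggaaaa
Rel chr11:23739194-23739200: gggaccccagaAGTTCTCcgcacctccaa
Rel chr11:23741228-23741234: actcagccttcAGTTCTCctgctctgcct
A match is a description of the sequence and not a measured target site.

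The promoters are shown because most members moved together under cytokines. RefSeq promoters on GRCm38.p6 were at hand for 7 members. Relb, Nfkb1 and Nfkbiz had no entry. Each window printed runs from 130 bases before the annotated start to base 20 of the transcript, on the strand of the gene, with matches to the 10-base κB consensus on either strand in capitals. The search covered 250 bases before to 50 bases after each start. A match was found in 5 of the 7 (Rel, Nfkb2, Nfkbia, Nfkbie and Tnfaip3), beside 8.46% of 32851 promoters and 9.55% of 27025 genes with a promoter in the table. Those of Rela and Nfkbib held none.
Nfkb2, first promoter (chr19:46304607-46304756, plus strand): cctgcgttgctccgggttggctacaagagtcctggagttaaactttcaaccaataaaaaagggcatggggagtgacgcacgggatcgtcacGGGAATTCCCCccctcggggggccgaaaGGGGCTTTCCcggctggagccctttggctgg
Nfkbia (chr12:55492628-55492777, minus strand): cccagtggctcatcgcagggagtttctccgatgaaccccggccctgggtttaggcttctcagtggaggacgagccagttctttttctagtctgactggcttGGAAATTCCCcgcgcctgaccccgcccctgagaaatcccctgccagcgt
Nfkbie (chr17:45555570-45555719, plus strand): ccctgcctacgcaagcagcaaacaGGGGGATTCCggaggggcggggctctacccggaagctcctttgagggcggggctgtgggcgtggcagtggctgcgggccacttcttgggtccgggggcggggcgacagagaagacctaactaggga
Tnfaip3, first promoter (chr10:19015391-19015540, minus strand): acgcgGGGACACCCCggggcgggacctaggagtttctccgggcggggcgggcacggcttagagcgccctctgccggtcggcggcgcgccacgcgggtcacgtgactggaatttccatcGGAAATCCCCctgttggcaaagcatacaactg
Rel (chr11:23770950-23771099, minus strand): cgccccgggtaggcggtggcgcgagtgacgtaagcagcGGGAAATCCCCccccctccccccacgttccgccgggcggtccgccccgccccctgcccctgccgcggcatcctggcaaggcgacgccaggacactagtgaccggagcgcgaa
Rela (chr19:5637411-5637560, plus strand): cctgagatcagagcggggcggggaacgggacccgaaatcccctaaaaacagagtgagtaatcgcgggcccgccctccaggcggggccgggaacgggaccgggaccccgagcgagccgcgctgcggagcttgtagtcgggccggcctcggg
Nfkbib (chr7:28766625-28766774, minus strand): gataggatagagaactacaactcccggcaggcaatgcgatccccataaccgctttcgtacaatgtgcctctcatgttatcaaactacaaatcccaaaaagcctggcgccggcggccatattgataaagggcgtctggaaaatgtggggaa
In Nfkb2 the matches began at 39, 38 and 11 bases before the start, the first 2 overlapping, and the windows of the other 2 annotated promoters, which overlap each other, held 2 further matches, 1 of them in both windows. The match in Nfkbia began 29 bases before the start and that in Nfkbie 106 bases before it. Tnfaip3 had matches beginning 125 and 12 bases before the start of its first promoter and none in its second. In Rel the matches overlapped, beginning 92 and 91 bases before the start. The matches at position 39 of Nfkb2, 92 of Rel and 125 of Tnfaip3 read as a match on both strands.

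Positions of the members follow the deposited table, on mm10. The libraries held 26657792 to 37168232 reads assigned to genes. Values are given as CPM, that is, counts scaled to a common library size after TMM scaling, in the order of replicates 1 to 4. The 9 β cell markers tested (among them Ins1, Ins2, Pdx1 and Mafa) were present in every group, and the 6 leukocyte markers measured summed to at most 4.68 CPM in any library, with Ptprc and Csf1r at 0 in all OE+Cy libraries. Fibroblast and endothelial markers summed to 13.1, 36.1 and 44.8 CPM in replicate 1 of Scr, ZIP and Scr+Cy (with Col1a1, a fibrillar collagen, at 5.50, 12.6 and 16.3 CPM), and to 0.929 to 7.99 CPM in the other 21 libraries. Replicate 4 of Scr+Cy held the lowest value of its group for 10 of 10 members, whereas it was the lowest for 24.6% of the 12670 genes with a mean of at least 1 CPM. The part of these libraries in each result was not tested, and results that change without them are given with both values. The labels do not say whether the replicates were separate cultures, so p-values measure the spread between these libraries. In these bulk samples fewer expressing cells and less RNA per cell cannot be told apart.

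The first comparison asks how the cytokines changed the pathway's own genes in control cells. All 10 members were higher in Scr+Cy than in Scr, with no overlap between the libraries, as was the case for 11.5% of all genes. A gene was called when it differed by at least 1.5-fold with an adjusted p under 0.05 (edgeR quasi-likelihood test, Benjamini-Hochberg over all 17696 genes). By this rule 7 of 10 members were called higher and none lower, where 5.96% of all genes were called higher. The members' median log2 fold change was 2.50, beside 0.00 over all genes. The remaining 3 (Rela, Rel and Nfkbib) had adjusted p-values under the threshold and folds under the limit. Without replicate 4 of Scr+Cy 9 members were called, and without replicate 1 of every group 7. The same split is visible in the plot of the members by library.

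**Figure D1:**
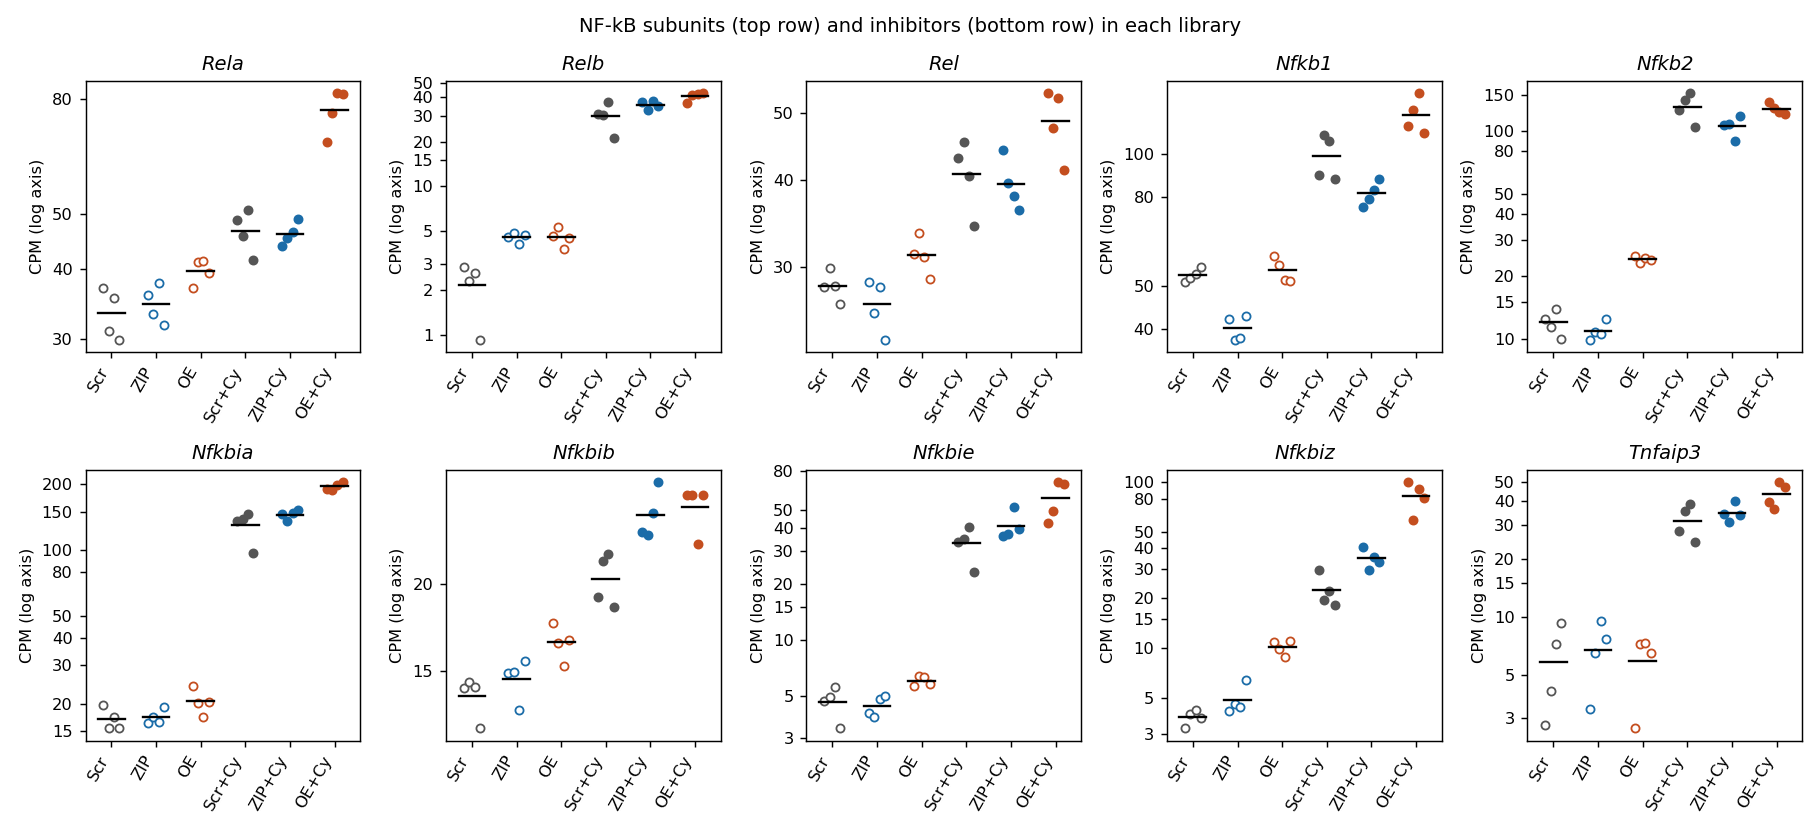
CPM of each member in each of the 24 libraries (log axis), by group; open points are untreated, filled points are cytokine-treated, and black bars are means of 4. Every cytokine-treated library lies above the untreated libraries of its own line for all 10 genes, and the OE+Cy libraries lie above those of all other groups for Rela, Nfkb1, Nfkbia and Nfkbiz.

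Relb (chr7:19606222-19629439, minus strand), the subunit of the non-canonical route, had the largest fold of the 10 in control cells. It was measured at 2.86, 2.30, 2.62 and 0.93 CPM in Scr and at 30.7, 30.2, 37.3 and 21.06 CPM in Scr+Cy, a 13.6-fold rise (log2 fold change 3.76 ± 0.19 (SE), adjusted p = 1.48e-13). Replicate 4 was the lowest library of both groups, and its untreated value of 0.93 CPM lay under the 2.30 to 2.86 CPM of the other 3. In ZIP the values went from 4.57, 4.89, 4.12 and 4.74 CPM to 37.1, 32.7, 37.5 and 35.0 CPM (7.77-fold), and in OE from 4.62, 5.33, 3.81 and 4.52 CPM to 36.5, 41.0, 42.2 and 42.4 CPM (8.86-fold). The smaller folds of ZIP and OE went with higher untreated levels. Without replicate 4 of Scr the log2 fold change of Relb in Scr was 3.52.

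Nfkb2 (chr19:46304737-46312091, plus strand), its partner and the gene for p100, was at 12.5, 11.4, 13.97 and 10.0 CPM in Scr and 126, 141, 152 and 105 CPM in Scr+Cy, a 10.9-fold rise (log2 fold change 3.45 ± 0.11 (SE), adjusted p = 4.42e-17). In ZIP it went from 10.9 ± 1.11 CPM to 106 ± 11.6 CPM (mean ± SD, n = 4), a 9.66-fold rise. In OE it started higher, at 25.1, 23.2, 24.6 and 23.9 CPM, and reached 139, 129.9, 124 and 121 CPM, a 5.30-fold rise. The deposited position of Nfkb2 overlaps the opposite-strand genes 4833438C02Rik and Psd, and use of strand in counting is not given in the sources used here, so reads of these genes could not be told apart where they overlap.

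Nfkb1 (chr3:135584655-135691548, minus strand), the gene for p105 and p50, showed a smaller change. Scr libraries held 51.2, 52.2, 53.2 and 55.2 CPM and Scr+Cy libraries 89.7, 111, 107 and 88.0 CPM, a 1.87-fold rise (log2 fold change 0.90 ± 0.08 (SE), adjusted p = 2.18e-09). The rise was 2.03-fold in ZIP (from 40.2 ± 2.65 CPM to 81.5 ± 5.20 CPM) and 2.26-fold in OE (from 54.4 ± 3.52 CPM to 123 ± 11.7 CPM).

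Rela (chr19:5637541-5648135, plus strand) and Rel, the canonical transactivating subunits, moved least among the subunits. Rela was at 37.0, 31.1, 35.5 and 30.0 CPM in Scr and 48.9, 45.7, 50.9 and 41.5 CPM in Scr+Cy, 1.40-fold higher (log2 fold change 0.48 ± 0.08 (SE), adjusted p = 5.81e-05), and in ZIP the difference was 1.33-fold. In OE it went from 37.0, 41.2, 41.4 and 39.3 CPM to 67.2, 75.6, 82.0 and 81.7 CPM, a 1.93-fold rise that passed the fold limit (log2 fold change 0.95 ± 0.08 (SE), adjusted p = 5.39e-10). The 2 OE groups did not overlap, and the lowest OE+Cy library was above the highest library of every other group.

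Rel (chr11:23736850-23770970, minus strand) was at 28.0, 29.8, 28.1 and 26.5 CPM in Scr and 43.1, 45.5, 40.5 and 34.4 CPM in Scr+Cy, 1.45-fold higher (log2 fold change 0.54 ± 0.09 (SE), adjusted p = 7.29e-05). Without replicate 4 of Scr+Cy it passed the fold limit, with a log2 fold change of 0.61. In ZIP it was 1.496-fold higher and in OE 1.56-fold (from 31.2 ± 1.97 CPM to 48.8 ± 5.58 CPM, adjusted p = 1.81e-06).

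Nfkbia (chr12:55489409-55492648, minus strand), the gene for the IκB that NF-κB restores after activation, had the largest fold of the 3 classical IκBs in Scr. It went from 19.7, 15.5, 17.4 and 15.5 CPM in Scr to 136, 138, 146.5 and 97.3 CPM in Scr+Cy, a 7.62-fold rise (log2 fold change 2.93 ± 0.11 (SE), adjusted p = 5.76e-16). The 4 treated libraries lay far above the untreated ones, with replicate 4 below the other 3. The rise was 8.36-fold in ZIP (to 145.6, 136, 147 and 152 CPM) and 9.51-fold in OE (from 24.2, 20.2, 17.4 and 20.3 CPM to 190.3, 187, 198 and 204 CPM).

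Nfkbie (chr17:45555700-45563169, plus strand), the gene for IκBε, rose by a similar factor. Scr libraries held 4.75, 4.97, 5.59 and 3.38 CPM and Scr+Cy libraries 33.7, 35.0, 40.1 and 23.1 CPM, a 7.04-fold rise (log2 fold change 2.82 ± 0.18 (SE), adjusted p = 1.67e-11). It rose 9.15-fold in ZIP, to 36.0 to 51.4 CPM, and 9.49-fold in OE, to 42.2, 49.3, 70.2 and 68.2 CPM. Replicates 3 and 4 of OE+Cy were well above replicates 1 and 2.

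Nfkbib (chr7:28758251-28766645, minus strand), the gene for IκBβ, changed least of the 5 inhibitors. It was at 14.2, 14.5, 14.2 and 12.4 CPM in Scr and 19.1, 21.6, 22.1 and 18.6 CPM in Scr+Cy, 1.47-fold higher and under the fold limit (log2 fold change 0.56 ± 0.08 (SE), adjusted p = 8.72e-06), which it passed without replicate 4 of Scr+Cy (log2 fold change 0.60). In ZIP it rose 1.72-fold (from 14.6 ± 0.99 CPM to 25.1 ± 2.08 CPM) and in OE 1.57-fold (from 16.5 ± 0.95 CPM to 25.8 ± 2.02 CPM). The position of Nfkbib overlaps the opposite-strand gene Ccer2, so the limit given for Nfkb2 holds here too.

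Nfkbiz (chr16:55811377-55838642, minus strand), the nuclear IκB-like co-activator, went from 3.26, 3.97, 4.22 and 3.78 CPM in Scr to 29.6, 19.4, 22.0 and 18.1 CPM in Scr+Cy, a 5.86-fold rise (log2 fold change 2.55 ± 0.18 (SE), adjusted p = 4.43e-11). In ZIP it went from 4.13, 4.59, 4.37 and 6.35 CPM to 40.6, 29.8, 35.4 and 33.2 CPM (7.13-fold) and in OE from 10.8, 9.88, 8.75 and 10.97 CPM to 101, 59.3, 90.8 and 80.2 CPM (8.19-fold). Of the treated groups, OE+Cy was highest and Scr+Cy lowest, with no overlap between neighbours. Scr+Cy and ZIP+Cy nearly touched, with the highest Scr+Cy library at 29.65 CPM and the lowest ZIP+Cy library at 29.76 CPM.

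Tnfaip3 (chr10:19000910-19015411, minus strand) was the most variable member in untreated cells. Scr libraries held 2.75, 4.17, 7.28 and 9.29 CPM, ZIP libraries 3.37, 6.49, 9.58 and 7.69 CPM and OE libraries 2.66, 7.26, 7.37 and 6.55 CPM. In each line replicate 1 was the lowest. Under cytokines the values were 28.0, 35.5, 38.7 and 24.5 CPM in Scr+Cy, a 5.43-fold rise (log2 fold change 2.44 ± 0.30 (SE), adjusted p = 1.08e-06). The rise was 5.09-fold in ZIP and 7.25-fold in OE, where the treated libraries reached 36.2 to 50.1 CPM. The coefficient of variation in Scr, 50.4%, was the largest of the 60 sets of 4 libraries.

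Counted over the members, 8 of 10 were called higher in ZIP+Cy against ZIP, where 6.12% of all genes were, and 10 of 10 in OE+Cy against OE, where 11.8% of all genes were. The members' median log2 fold changes were 2.59 and 2.63, beside -0.01 and 0.02 over all genes. All 10 were also higher without overlap between the libraries in both lines, beside 13.3% of all genes in ZIP and 20.7% in OE. In OE+Cy against OE, 5 of the 9 β cell markers (Ins1, Ins2, Pdx1, Mafa and Slc2a2) were called lower, and none in the other 2 lines. In either direction, 44.6% of all genes had an adjusted p under 0.05 in OE, 26.4% in ZIP and 17.8% in Scr. The part of these markers in the OE values was not tested. Rela and Rel were the 2 not called in ZIP. Rel is at the limit there: it was called in a fit of the 2 ZIP groups alone (log2 fold change 0.59) and in 4 of the fits that left out a library.

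**Figure D2:**
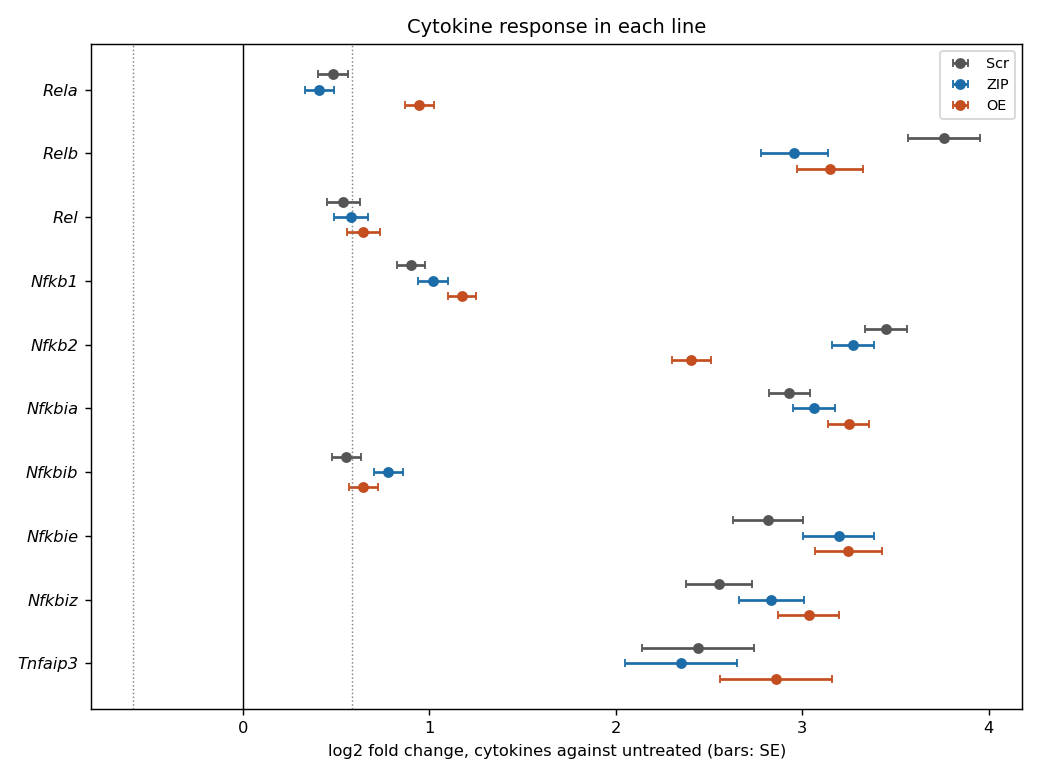
Log2 fold change of each member under cytokines in the Scr, ZIP and OE lines, with SE (n = 4 against 4 libraries each); dotted lines mark 1.5-fold. Relb, Nfkb2, Nfkbia, Nfkbie, Nfkbiz and Tnfaip3 lie above 2 in all 3 lines, whereas Rela, Rel, Nfkb1 and Nfkbib lie between 0.41 and 1.18.

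The study also compared the treated modified lines with untreated Scr, which combines line and treatment. Against Scr, 8 members were called higher in ZIP+Cy (11% of all genes) and 10 in OE+Cy (17.6% of all genes). These comparisons share the Scr libraries with the one above. Nfkbiz and Relb had the largest folds in OE+Cy, at 21.8 and 18.4, and Relb had the largest in ZIP+Cy, at 16.2. The call of Nfkb1 in ZIP+Cy (1.54-fold) was just past the limit and was lost without replicate 4 of ZIP+Cy.

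The next comparison asks whether the lines differed before any cytokine was added. In ZIP against Scr, 1 of 10 members was called higher (6.29% of all genes) and none lower (5.89% of all genes). This was Relb, 2.08-fold higher in ZIP (log2 fold change 1.06 ± 0.21 (SE), adjusted p = 0.000417), with all ZIP libraries above the Scr libraries, as for 13.3% of all genes. Nfkb1 was lower in all 4 ZIP libraries (42.1, 37.8, 38.0 and 42.8 CPM) than in any Scr library, as were 13.8% of all genes, by 1.32-fold, which is under the fold limit (log2 fold change -0.40 ± 0.08 (SE), adjusted p = 0.000339). The other 8 members had adjusted p-values of 0.187 or more. The 95% intervals of their log2 differences reached from -0.10 to 0.21 for Rela and, at the widest, from -0.47 to 0.34 for Nfkbie and from -0.40 to 0.86 for Tnfaip3. Of the 9 β cell markers 3 were called higher in ZIP (Ins1, Iapp and Slc2a2) and none lower, and the same 3 were called higher in ZIP+Cy against Scr+Cy; their part in the values of the members was not tested.

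In OE against Scr, 3 members were called higher (10.4% of all genes) and none lower (13.4% of all genes). Nfkbiz was 2.66-fold higher (log2 fold change 1.41 ± 0.18 (SE), adjusted p = 5.27e-07), Nfkb2 2.02-fold (log2 fold change 1.01 ± 0.11 (SE), adjusted p = 2.85e-08) and Relb 2.08-fold (log2 fold change 1.06 ± 0.21 (SE), adjusted p = 0.000155). In all 3 the OE libraries lay above the Scr libraries, as they did for 22.7% of all genes. They also did for Rela, Nfkbib and Nfkbie, which were not called (Nfkbie 1.295-fold, adjusted p = 0.121). Rela (1.19-fold), Nfkbib (1.19-fold) and Nfkbia (1.21-fold) had adjusted p-values of 0.00995, 0.00969 and 0.0437 under the fold limit. Rel, the only member with seed matches, was at 31.3, 33.6, 30.9 and 28.8 CPM in OE (log2 fold change 0.15 ± 0.09 (SE), adjusted p = 0.174), and the groups overlapped. Relb was thus higher in both modified lines than in Scr, and these comparisons share the Scr libraries. Without replicate 4 of Scr, its lowest library for this gene, Relb was still called in both, with log2 fold changes of 0.81 in each. Of the 9 β cell markers 4 were called higher in OE (Ins1, Ins2, Iapp and Slc2a2) and Nkx6-1 lower, with Ins1 at a mean of 7673 CPM in OE and 674 CPM in Scr. Their part in the values of the members was not tested.

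Under cytokines, 1 member was called higher in ZIP+Cy than in Scr+Cy (5.89% of all genes) and none lower (6.7% of all genes). This was Nfkbiz, 1.56-fold higher (log2 fold change 0.64 ± 0.15 (SE), adjusted p = 0.00237). The call is close to the limit: it was lost without replicate 2 or 4 of Scr+Cy or replicate 1 of ZIP+Cy, with log2 fold changes down to 0.55. Nfkb1 was lower in ZIP+Cy (1.21-fold, adjusted p = 0.0074), as was Nfkb2 (1.24-fold, adjusted p = 0.0198), and Nfkbib was 1.24-fold higher (adjusted p = 0.00392), all 3 under the fold limit. The libraries of the 2 groups did not overlap for Nfkb1 (15% of all genes were lower without overlap) and Nfkbib (12.6% higher without overlap), and did for Nfkb2. For Nfkb1 they nearly touched, with replicate 4 of ZIP+Cy, the highest there, at 87.99 CPM and replicate 4 of Scr+Cy, the lowest there, at 88.04 CPM.

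In OE+Cy against Scr+Cy, 4 members were called higher (12.7% of all genes) and none lower (14% of all genes). Nfkbiz was 3.71-fold higher (log2 fold change 1.89 ± 0.15 (SE), adjusted p = 2.18e-10), Nfkbie 1.75-fold (log2 fold change 0.80 ± 0.16 (SE), adjusted p = 0.000164), Rela 1.64-fold (log2 fold change 0.71 ± 0.08 (SE), adjusted p = 3.44e-08) and Nfkbia 1.505-fold (log2 fold change 0.59 ± 0.10 (SE), adjusted p = 2.34e-05). The OE+Cy libraries lay above all Scr+Cy libraries for these 4, as they did for 22.5% of all genes. They also did for Nfkb1 and Nfkbib, which were under the fold limit. The Nfkbia call was lost without replicate 4 of Scr+Cy (log2 fold change 0.48) or of OE+Cy (0.57). Nfkb1, Nfkbib, Relb and Rel had adjusted p-values of 0.00124, 0.000546, 0.0175 and 0.0167 with folds of 1.20 to 1.36. Nfkb2, which was higher in untreated OE cells, did not differ detectably here (log2 fold change -0.03 ± 0.10 (SE), adjusted p = 0.828, 95% interval -0.22 to 0.16). Among the β cell markers Ins1, Iapp and Slc2a2 were called higher and Pdx1, Mafa and Nkx6-1 lower in OE+Cy, and their part was not tested here either.

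**Figure D3:**
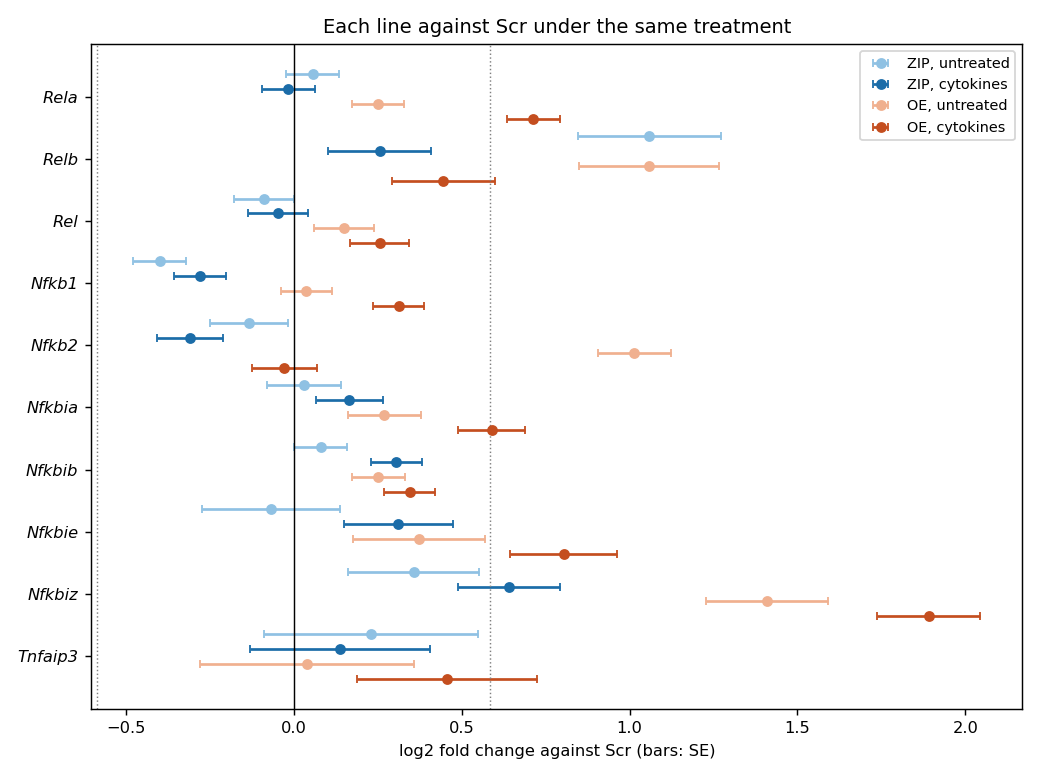
Log2 fold change of each member in ZIP and OE against Scr, untreated and under cytokines, with SE (n = 4 against 4); dotted lines mark 1.5-fold. Nfkbiz is highest in OE under both treatments (1.41 and 1.89), whereas Nfkb2 goes from 1.01 in untreated OE cells to -0.03 under cytokines and Nfkb1 is below 0 in ZIP under both.

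Whether the cytokine response itself differed between lines was tested as an interaction, called at an adjusted p under 0.05 with no fold limit. For ZIP against Scr, 0 of 10 members and 0.0565% of all genes were called (edgeR); 1 member had an unadjusted p under 0.05, and DESeq2 also called 0. That member was Relb (log2 fold change -0.80 ± 0.26 (SE), adjusted p = 0.51). For OE against Scr, 2 of 10 members and 20% of all genes were called, 1 in each direction, so that the members' share equals that of all genes. Of the 9 β cell markers 6 were called in this test, all with a lower response in OE, and their part was not tested. The response of Nfkb2 was smaller in OE than in Scr by 1.04 on the log2 scale (log2 fold change -1.04 ± 0.15 (SE), adjusted p = 3.07e-05): cytokines brought it to 128 ± 7.79 CPM in OE and 131 ± 20.4 CPM in Scr, from untreated levels of 24.2 ± 0.84 CPM and 12.0 ± 1.67 CPM. The response of Rela was larger in OE (log2 fold change 0.46 ± 0.11 (SE), adjusted p = 0.00414), with 76.6 ± 6.93 CPM reached in OE and 46.7 ± 4.10 CPM in Scr.

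The other 8 members did not pass this test. Nfkb1 had a difference of 0.27 ± 0.11 (adjusted p = 0.0775), which passed in DESeq2 (0.29, adjusted p = 0.0411) and without replicate 2 of Scr+Cy (0.33). Nfkbiz had 0.48 ± 0.24 (adjusted p = 0.164). Without replicate 1 of every group, an alternative chosen after seeing the fibroblast markers, it passed at 0.67 (adjusted p = 0.0324), and it also passed without replicate 1 of Scr+Cy alone (0.65). Relb had -0.61 ± 0.26 (adjusted p = 0.102) and passed without replicate 1 of Scr (-0.78) or replicate 4 of Scr+Cy (-0.75). The differences of Nfkbia, Nfkbie and Tnfaip3 were 0.32 ± 0.15, 0.43 ± 0.25 and 0.42 ± 0.42, with adjusted p-values of 0.138, 0.258 and 0.542. For Rel and Nfkbib they were 0.11 ± 0.12 and 0.09 ± 0.11, with 95% intervals of -0.14 to 0.35 and -0.12 to 0.31.

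Levels can be compared between genes only per length of transcript. Divided by the length of all annotated exons, Rela made up 48.9 ± 1.83% (SD, n = 4) of the summed subunit transcripts in Scr and 23.5 ± 1.68% in Scr+Cy, whereas Nfkb2 went from 11.7 ± 0.916% to 43.8 ± 1.32% and Relb from 2.49 ± 0.886% to 11.7 ± 1.27%. In OE the share of Nfkb2 was 18.8 ± 0.964% untreated and 35.0 ± 2.68% treated, and that of Rela 46.1 ± 1.89% and 31.1 ± 2.47%. By mean share the 2 genes thus exchanged the leading place in all 3 lines under this length. In OE+Cy their levels overlapped, at 21.87 to 26.7 CPM per kb for Rela and 26.4 to 30.25 for Nfkb2.

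The choice of length matters for Nfkb1, whose exons span 12.06 kb in all and 4.149 kb in the longest transcript. Both lengths are from GENCODE, whereas the paper's methods name RefSeq transcripts for the counts. Whether either length matches what was counted was not tested. With the longest transcript of each gene, Nfkb1 led in Scr at 39.3 ± 2.97% with Rela at 37.6 ± 2.07%, and Nfkb2 led in Scr+Cy at 37.9 ± 1.17%. By mean share Nfkb2 was the leading subunit in all 3 treated groups under both lengths. The lead was narrow in OE+Cy, where single libraries could differ in order. With the longest transcripts Nfkb2 held 30.4 ± 2.46% there and Nfkb1 26.8 ± 1.56%.

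Of the 3 classical IκBs, Nfkbia held 57.1 ± 2.84% of the summed transcripts per length in Scr and 79.9 ± 0.867% in Scr+Cy, while Nfkbib went from 34.6 ± 2.10% to 9.45 ± 1.20% and Nfkbie from 8.27 ± 1.31% to 10.7 ± 0.660%. The sum of the 3 IκBs over the sum of the 5 subunits was 0.831 ± 0.0247 in Scr, 0.876 ± 0.0878 in ZIP and 0.796 ± 0.0814 in OE. With cytokines the ratio was 1.54 ± 0.0815 in the Scr line, while the ZIP and OE lines had 1.95 ± 0.128 and 1.90 ± 0.110. The treated groups did not overlap the untreated ones, and the libraries of ZIP+Cy (1.83 to 2.13) and OE+Cy (1.80 to 2.05) lay above those of Scr+Cy (1.43 to 1.62). These are sums over transcripts, given without a test, and say nothing of protein amounts. With the longest transcripts the ratios were 0.583, 0.649 and 0.581 untreated and 1.14, 1.47 and 1.41 treated.

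**Figure D4:**
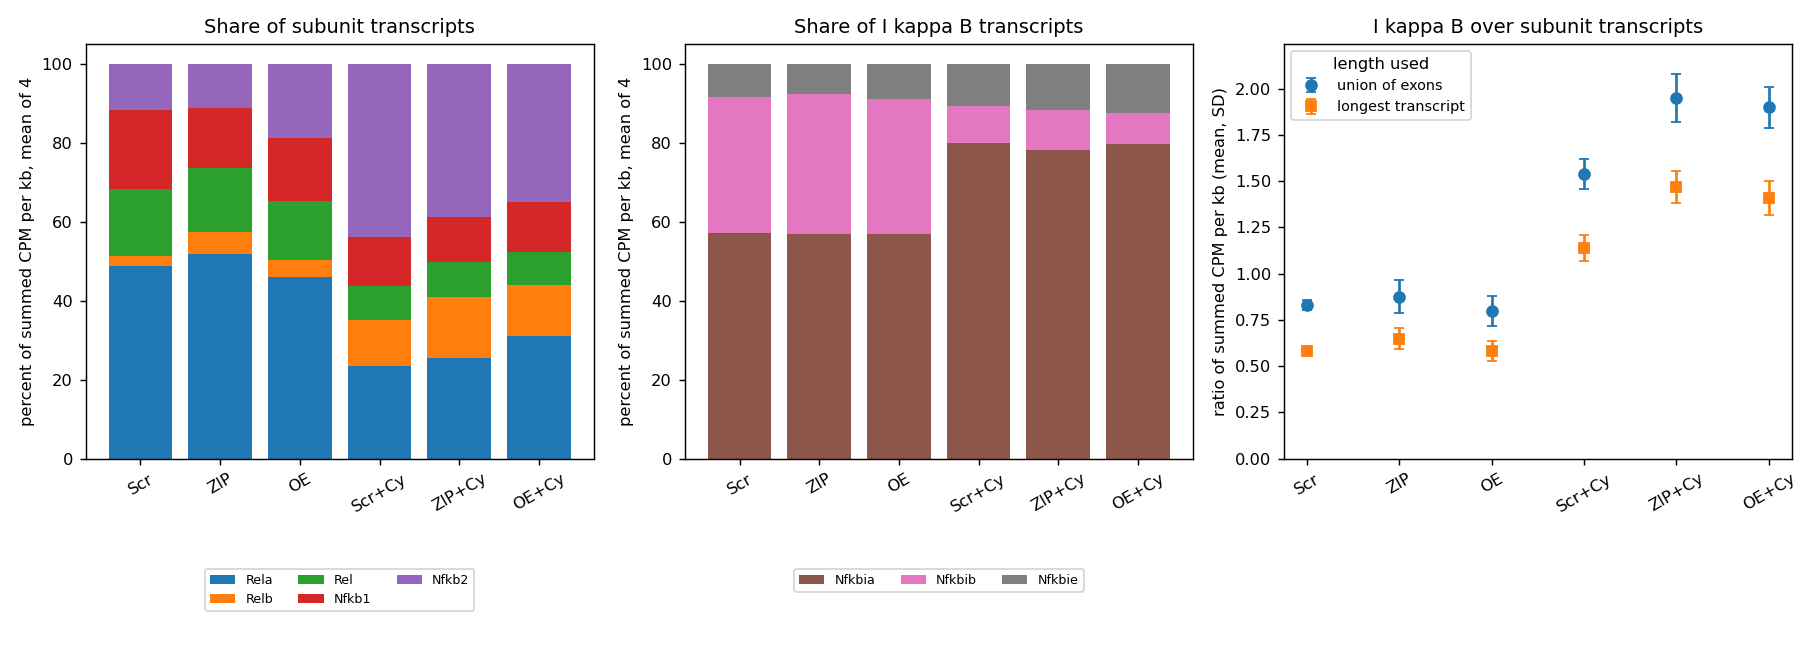
Left and middle: shares of each subunit and of each classical IκB in the summed CPM per kb of all annotated exons (mean of 4 libraries). Right: the ratio of the summed IκBs to the summed subunits, mean and SD of 4, under both gene lengths. The share of Nfkb2 goes from 11.7% in Scr to 43.8% in Scr+Cy, and the ratio from 0.831 to 1.54.

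Other genes of the pathway were read from lists, counted whole. The counts for Scr below stand beside 5.96% of all genes called higher under cytokines. Under cytokines in Scr, 2 of 6 genes for receptors of IL-1 and TNF and the secreted IL-1 receptor antagonist (Il1rn) were called higher. These were Il1r2, the decoy IL-1 receptor (0.857 ± 0.0996 to 2.21 ± 0.600 CPM, 2.57-fold), and Tnfrsf1a, the main TNF receptor (86.1 ± 5.79 to 140.8 ± 14.9 CPM, 1.64-fold). Of 17 receptor-proximal adaptors 6 were called higher, with Birc3, a ubiquitin ligase of the TNF receptor complex, going from 2.10 ± 0.313 to 24.1 ± 5.34 CPM (11.5-fold). Myd88, the adaptor of the IL-1 receptor, rose 2.301-fold and Traf3, which restrains the non-canonical route, 2.07-fold. Of the 6 IκB kinase and NIK genes only Ikbke was called, at 1.65-fold.

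Of 16 other IκB-like genes and negative regulators, 5 were called higher, beside the same 5.96% of all genes. Zc3h12a, the gene for the RNase Regnase-1, went from 0.577 ± 0.225 to 6.16 ± 1.52 CPM (10.4-fold), Bcl3, a nuclear IκB-like protein that binds p50 and p52, rose 4.79-fold, and Nfkbid, another nuclear IκB, 3.51-fold. Of 21 known NF-κB target genes measured, 18 were called higher, led by Nos2, the inducible nitric oxide synthase (0.124 ± 0.156 to 24.98 ± 11.1 CPM), and the chemokine gene Cxcl10 (3.41 ± 3.82 to 629.7 ± 203.2 CPM), and Tnf was at 0 in all Scr libraries and 0.816 ± 0.376 CPM in Scr+Cy. No gene of these 5 lists was called lower in Scr+Cy.

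The same lists in the other lines gave, for ZIP, 6 adaptors, 1 kinase, 4 regulators and 17 targets called higher under cytokines, and for OE 8, 3, 6 and 20. Of all genes, 6.12% were called higher in ZIP and 11.8% in OE. Of the receptor list, Il1r2 and the antagonist gene Il1rn were called in ZIP, the latter from 0 to a mean of 0.167 CPM, and Tnfrsf1b, Tnfrsf1a, Il1r2 and Il1rn in OE. No gene of these lists had a called interaction in ZIP, where 0.0565% of all genes had one. In OE, beside the 20% of all genes, 1 gene of the receptor list was called with a higher and 1 with a lower response, 4 and 3 of the 17 adaptors, 3 and 0 of the 6 kinases, 4 and 1 of the 16 regulators and 3 and 0 of the 21 targets (Cd40, Csf1 and Gadd45b). Zc3h12a had the largest difference among the regulators (log2 2.76 ± 0.40, adjusted p = 4.21e-05), with 37.5 ± 6.74 CPM in OE+Cy. Its untreated means were low, at 0.523 CPM in OE and 0.577 CPM in Scr, so this difference rests on few untreated reads. Tnip1, which binds A20, also differed (0.90 ± 0.17, adjusted p = 0.000701), as did Irak2 (1.91 ± 0.26, adjusted p = 1.92e-05), a kinase of the IL-1 receptor complex, and Ikbke (1.22 ± 0.18, adjusted p = 6.27e-05). The 3 adaptors with a lower response were Traf3, Irak1 and Map3k7, and the regulator was Itch. Il1r1, the signalling IL-1 receptor, differed in the other direction (-0.74 ± 0.11, adjusted p = 8.29e-05), and went from 1048 ± 58.1 to 830.3 ± 50.4 CPM in OE and from 660.2 ± 47.5 to 871.6 ± 54.6 CPM in Scr. Between the treated groups, 17 of the 21 targets were called higher in OE+Cy than in Scr+Cy (12.7% of all genes). Only 1 target, Ptgs2, was called lower there (14% of all genes). In ZIP+Cy against Scr+Cy, 9 targets were called higher (5.89% of all genes) and none lower (6.7%). Several targets were near 0 CPM untreated (Nos2 at 0.124 and Tnf at 0 in Scr), so their interactions rest on few reads.

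The genes whose pattern over the 24 libraries was most like that of a member were found by Pearson's correlation of log2 CPM among 10889 genes with a mean of at least 5 CPM. The libraries fall in 6 groups and are not independent points, so each correlation is given as a description. The nearest gene to Nfkbie was another member, Nfkbia (r = 0.990). For Nfkbia it was Ddx58 (0.993), for Nfkb2 Cd274 (0.986), for Nfkb1 Sdc4 (0.985), for Relb H2-D1 (0.980), for Nfkbiz Chd1l (0.980), for Tnfaip3 Gbp6 (0.976), for Rela Gtpbp2 (0.966), for Nfkbib Slc11a2 (0.966) and for Rel Sdc4 (0.942). Bcl3 was the third nearest to Nfkbiz (0.969).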

How the data were processed

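Total RNA of the 24 libraries was prepared with a KAPA mRNA kit. The authors deposited a table of estimated counts per gene that the submitters' processing notes tie to STAR 2.7.8a and Partek 11.0.24.0204 with genome build mm10. The paper's methods name other versions of both. The counting method and its use of strand are not given in the sources used here. Of the values, 30.3% were not whole, and every gene had a total of at least 10. A second deposited table, scaled by median ratios, was not used here.

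Counts were rounded and fitted with edgeR 4.0.16 (quasi-likelihood test, TMM, 6 group means, 17696 genes) in R 4.3.3, and read for the 10 members. The study called genes at 1.5-fold and an unadjusted p under 0.05 with DESeq2. Here the p was adjusted by Benjamini-Hochberg over all genes. The SE of a log2 fold change was its size over the square root of F, and 95% intervals are normal intervals from it. The members and lists were chosen with earlier results of these data known. Genes of the other lists were named as the 3 with the largest change called in Scr+Cy against Scr and the 2 with the largest called interaction, and a few of these are printed. Genes most like a member were the 3 with the highest correlation.

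No 2 libraries of a group agreed within sampling noise. The labels number the replicates 1 to 4 in every group, with a shared code for each number. Deviations from the group means over 12670 genes correlated at 0.413 to 0.626 for Scr with Scr+Cy, 0.261 to 0.397 for ZIP with ZIP+Cy and 0.162 to 0.455 for OE with OE+Cy, so the numbers pair the treated with the untreated libraries of a line. Scr with ZIP (0.141 to 0.634) and Scr+Cy with ZIP+Cy (0.191 to 0.370) also paired, whereas Scr with OE (-0.129 to 0.295) and Scr+Cy with OE+Cy (0.000631 to 0.165) did not. Alternatives were DESeq2 1.42.0, its size factors in edgeR, a filter on low counts, a replicate block, fits of the compared groups alone, other thresholds, each library left out in turn and, chosen after seeing the data, replicate 1 of every group left out. No filter on low values was used. The scripts were tested on simulated data. Gene lengths came from GENCODE M21, and sequences from RefSeq and GENCODE on GRCm38.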

Additional observations from a re-analysis of the deposited data

Results flagged for a closer look

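Nfkbib in replicate 4 of Scr stood apart at 12.4 CPM, where the other 3 libraries lay between 14.2 and 14.5 CPM. In OE+Cy its replicate 3 stood apart at 22.8 CPM, beside 26.8 to 26.9 CPM. These were the only 2 of 60 sets of 4 libraries (10 members in 6 groups) in which the gap to the nearest library exceeded the 95% limit of Dixon's test, and chance alone gives about 1 in 20.

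The cytokine response of Rela differed between OE and Scr by 0.46 ± 0.11 on the log2 scale (SE, adjusted p = 0.00414, edgeR). That of Nfkb2 differed by -1.04 ± 0.15 (adjusted p = 3.07e-05). Both were called by the interaction test, as 20% of all genes were.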

How the results depend on the processing

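DESeq2, its size factors in edgeR, the filter, the fits of the compared groups alone and the replicate block left every count of members called within 1.5 times the count reported. With the replicate block 7, 8 and 10 members were called under cytokines in Scr, ZIP and OE, and the block changed no member's call. With an adjusted p under 0.05 and no fold limit, 2 members differed in ZIP against Scr (28.3% of all genes), 6 in OE against Scr (50.1%), 4 in ZIP+Cy against Scr+Cy (28.1%) and 8 in OE+Cy against Scr+Cy (53.4%). With an unadjusted p, 1 interaction was called for ZIP (6.43% of all genes) and 5 for OE (31.7%). With libraries left out, the count for ZIP+Cy against Scr+Cy ranged from 0 to 1. Signs turned with 1 library left out for log2 fold changes near 0: in ZIP against Scr, Nfkbia from -0.023 to 0.111, Nfkbie from -0.191 to 0.049 and Tnfaip3 from -0.012 to 0.543; in OE against Scr, Tnfaip3 from -0.204 to 0.351; under cytokines, Rela from -0.069 to 0.027 and Rel from -0.122 to 0.008 in ZIP, and Nfkb2 from -0.121 to 0.051 in OE; in the interaction of ZIP, Rel from -0.033 to 0.097 and Tnfaip3 from -0.405 to 0.150. Without replicate 1 of every group, Nfkb1 in OE against Scr turned to -0.009 and Rela in ZIP+Cy against Scr+Cy to 0.044. The cause was not tested. Median-ratio scaling in place of TMM turned no direction. Levels per kb moved by at least 1 SD in 29 of 120 recalculations, all 29 with the longest transcript.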
